A study of Mus musculus with 9 samples.

Results

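Tumor necrosis factor (TNF) receptor family genes with roles in B cell survival and costimulation were followed in splenic B cells of leukemic and healthy mice. The set held 9 genes, chosen by name out of 22174 genes in the study's gene table: the receptors Tnfrsf13b (TACI), Tnfrsf13c (the BAFF receptor), Tnfrsf17 (BCMA), Cd40, Cd27 and Relt, and the ligands Tnfsf13b (BAFF), Tnfsf13 (APRIL) and Cd70. Relative to wildtype B cells, Relt rose and Cd40 fell in both leukemia models, and Tnfrsf13c rose in Eµ-MTCP1 mice. The remaining 6 genes passed the test in neither model, and 2 of these, Tnfsf13b and Cd70, had too few reads to pass the expression filter.

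BAFF and APRIL are made largely by myeloid and stromal cells and reach B cells as soluble proteins. BAFF binds the BAFF receptor, TACI and BCMA, whereas APRIL binds TACI and BCMA. The BAFF receptor carries the survival signal of mature B cells, TACI is high on marginal zone and activated B cells, and BCMA is the receptor of plasma cells. CD40 receives T cell help through CD40 ligand, and CD27, with its ligand CD70, is a costimulatory receptor of lymphocytes. These receptors signal through TRAF adaptors, and CD40 and the BAFF receptor drive the noncanonical NF-κB pathway, in which the NF-κB-inducing kinase leads to processing of p100 (Nfkb2). RELT is a less studied receptor of the family that is found mainly in lymphoid tissue and has no well established ligand.

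RNA-sequencing had been performed on 9 libraries of B cells isolated from spleen with a pan B cell kit, each from 1 C57/BL6NTac mouse, with 3 mice in each of 3 groups. Eµ-MTCP1 mice carried human MTCP1 under a VH promoter and the IgH-Eµ enhancer, which restrict expression to B cells, and all 3 were of founder line Z36. Eµ-TCL1 mice carried human TCL1 in their B cells, and the wildtype mice were littermates without the hMTCP1 transgene. The transgenic mice were age-matched and had a significant disease burden; the ages and sexes of the sequenced mice are not given in the sources used here. By the study's methods, the Z36 transgene had inserted in an intron of Fam168a on chromosome 7, the gene that lies beside Relt. Since no mouse of another founder line was sequenced, an effect of MTCP1 and an effect of the insertion cannot be told apart in these libraries.

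Reads had been assigned with Salmon to a reference of coding sequences with human MTCP1 and TCL1 added, and 6464089 to 8053017 reads per library were available. Reads on the 1 human transcript that marked Eµ-MTCP1 mice numbered 1744 to 4833 in those mice and 0 to 3 in the others, and the most abundant of the transcripts that marked Eµ-TCL1 mice had 22367 to 40141 reads in those mice and 3 to 17 in the others, so the libraries matched their labels. The B cell marker Cd79a was high in all 9 libraries (19781 to 27080 reads), whereas the T cell markers Cd3e and Cd3g had 0 to 51 and 3 to 146 reads and Pf4 of platelets 0 to 2. All 8 myeloid markers had reads in each group and summed to 842 to 1303 CPM in Eµ-MTCP1, 358 to 1539 CPM in Eµ-TCL1 and 837 to 1742 CPM in wildtype libraries; they did not move together, since Cd68 had 1069 to 1969 reads in the transgenic and 291 to 518 in the wildtype libraries while Csf1r, at 127 to 1094 reads, overlapped. Wildtype replicate 2 had been run on another lane than the other 8 libraries, so calls are also given without it. Values are given as counts per 1000000 reads after TMM normalisation (CPM), in the order of replicates 1, 2 and 3, and tests are the quasi-likelihood F test of edgeR with Benjamini-Hochberg adjustment over 11165 genes, called at an adjusted p under 0.05. Fewer cells of a type and less RNA per cell cannot be told apart in such bulk samples.

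Compared with wildtype, 3 of the 7 tested genes were called in Eµ-MTCP1 B cells, 2 higher (Relt and Tnfrsf13c) and 1 lower (Cd40), where 9.48% of all genes tested were called, 5.49% higher and 3.99% lower. In Eµ-TCL1 B cells 2 of 7 were called, Relt higher and Cd40 lower, against 9.2% of all genes, 5.07% higher and 4.13% lower. Between the leukemia models 0 of 7 were called, against 0.0448% of all genes (0.0269% higher and 0.0179% lower in Eµ-TCL1 mice), and at an unadjusted p under 0.05 there were 2 of 7, Relt and Tnfrsf13c, and 717 of all genes. Both comparisons against wildtype used the same 3 wildtype libraries. Scaling by library size alone in place of TMM moved the median log2 fold change of all genes to -0.255 (Eµ-MTCP1 against wildtype) and -0.152 (Eµ-TCL1 against wildtype), and the split of calls from 613 higher and 446 lower to 391 and 730 for Eµ-MTCP1 mice, and from 566 and 461 to 446 and 593 for Eµ-TCL1 mice. Under that scaling Relt stayed higher and Cd40 lower in both models, and Tnfrsf13c was not called (adjusted p = 0.0639). The median log2 fold change of the 7 genes was 1.08 for Eµ-MTCP1 and 0.42 for Eµ-TCL1 B cells, beside -0.02 and -0.01 over all genes tested.

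**Figure D1:**
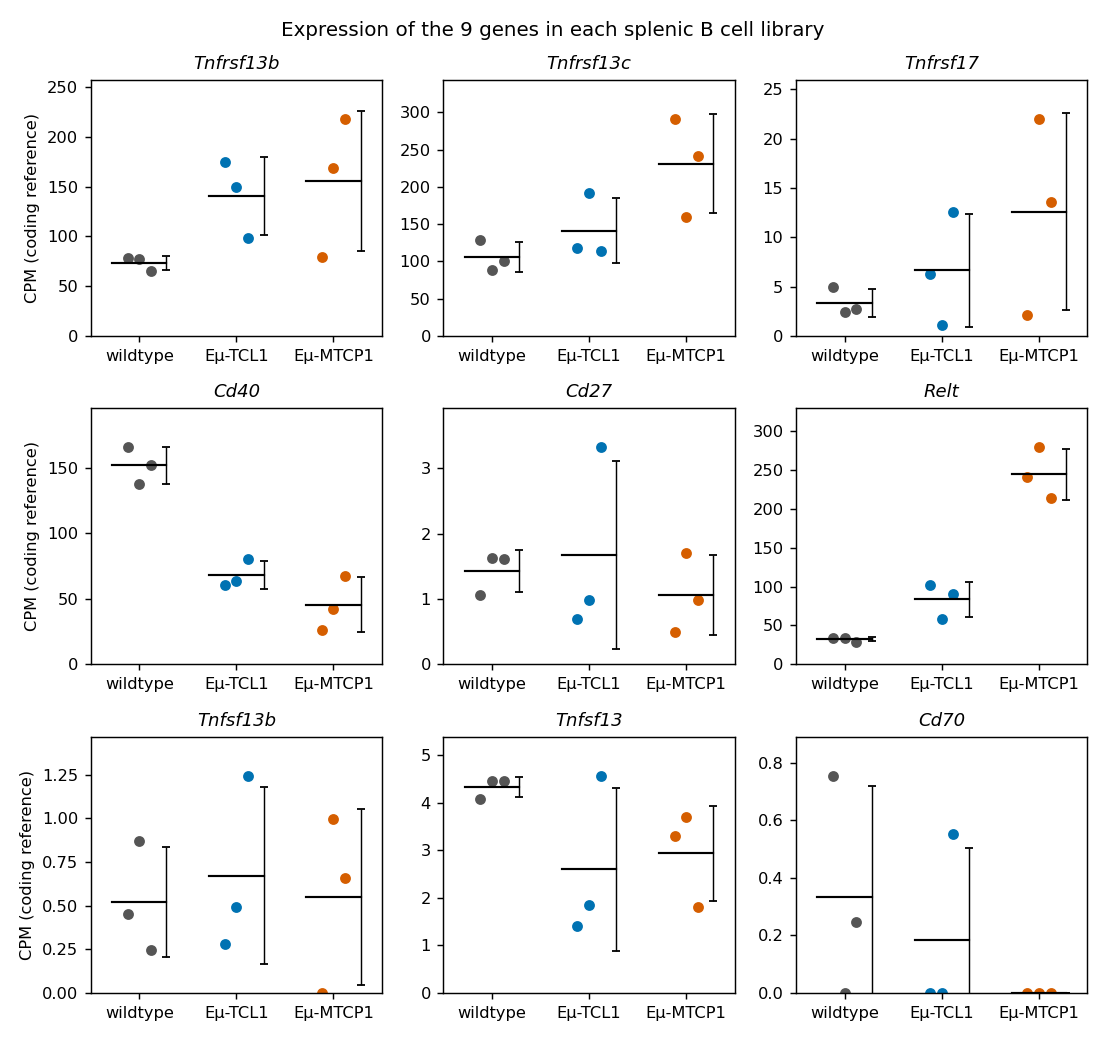
Expression of the 9 genes in CPM (vertical axes, linear and starting at 0, each with its own range) in wildtype, Eµ-TCL1 and Eµ-MTCP1 mice. Each point is 1 library, horizontal lines are group means and error bars are SD (n = 3, cut off at 0); Relt lies at 29.1 to 34.2 CPM in wildtype and 214 to 279 CPM in Eµ-MTCP1 mice, and Cd40 shows the opposite order, at 138 to 166 and 26.4 to 67.8 CPM.

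**Figure D2:**
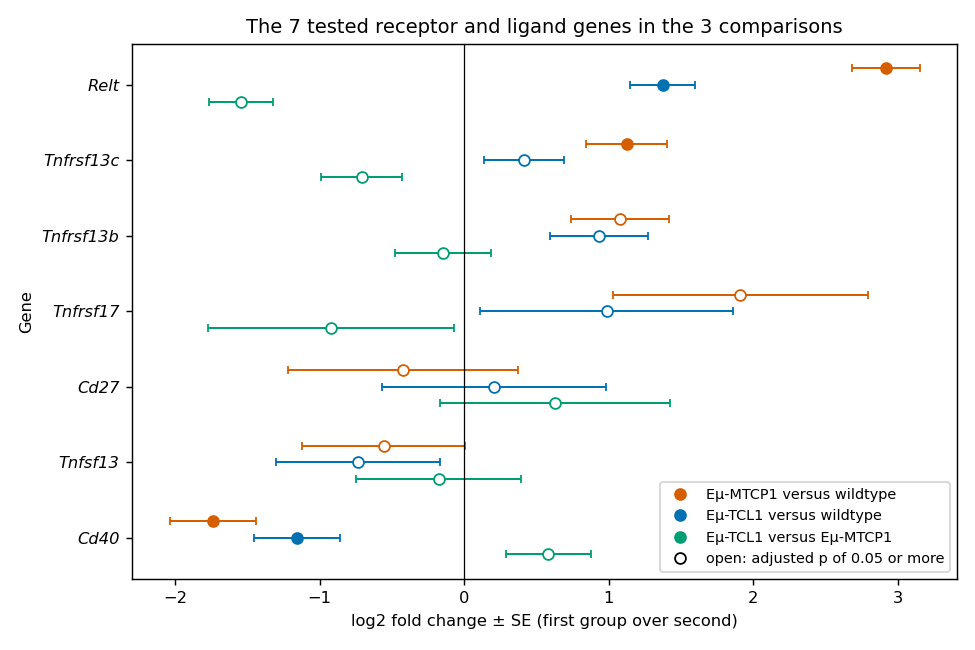
Log2 fold changes with SE (horizontal axis) of the 7 tested genes in the 3 comparisons (colors). Filled points passed an adjusted p of 0.05: Relt and Cd40 against wildtype in both models and Tnfrsf13c in Eµ-MTCP1 mice, with 0 filled points between the models.

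Relt (ENSMUSG00000008318, chr7:100845847-100863446, minus strand, GRCm38) showed the greatest difference of the set. It was measured at 240, 279 and 214 CPM in Eµ-MTCP1 mice, at 102, 58.8 and 90.5 CPM in Eµ-TCL1 mice and at 33.5, 34.2 and 29.1 CPM in wildtype mice. The 3 groups did not overlap, and every Eµ-MTCP1 library lay above every Eµ-TCL1 library, which in turn lay above wildtype. Against wildtype, groups without overlap were found for 29.9% of all genes tested in Eµ-MTCP1 and 32.6% in Eµ-TCL1 mice. Group means were 244 ± 32.9, 83.8 ± 22.4 and 32.3 ± 2.76 CPM (SD, n = 3 each). Relt was 7.56-fold higher in Eµ-MTCP1 than in wildtype B cells (log2 fold change 2.92, SE 0.24, adjusted p = 0.000191), the gene with the 9th smallest p of all 11165. In Eµ-TCL1 B cells it was 2.59-fold higher than in wildtype (log2 fold change 1.38, SE 0.23, adjusted p = 0.00402). Both calls were kept under each of 21 alternative settings, with adjusted p between 1.89e-28 and 0.00219 for Eµ-MTCP1 and between 5.08e-07 and 0.0264 for Eµ-TCL1. Without wildtype replicate 2 the log2 fold changes were 2.93 (adjusted p = 0.00146) and 1.39 (adjusted p = 0.0194).

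Between the models Relt in Eµ-TCL1 B cells was 2.92-fold below its level in Eµ-MTCP1 B cells (log2 fold change -1.54, SE 0.22). The groups did not overlap, as held for 11% of all genes tested, and Relt had the 6th smallest p in this comparison (unadjusted p = 3.5e-05), but the adjusted p was 0.0651. The adjusted p fell under 0.05 under 4 of the 21 alternatives, 3 fits with DESeq2 and the fit without an expression filter, over a range of 6.32e-07 to 0.285. The step from Eµ-TCL1 to Eµ-MTCP1 mice was thus called by DESeq2 and not by edgeR after the expression filter.

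The sequence before the start of Relt is shown because the gene changed in both models, and that of Tnfrsf13c because it was called in Eµ-MTCP1 mice. Both are the 250 bases upstream of the RefSeq start (GRCm38.p6), written 5′ to 3′ on the minus strand, Relt at chr7:100863414-100863663 and Tnfrsf13c at chr15:82224381-82224630, with GC boxes (GGGCGG on either strand) in capitals.
Relt: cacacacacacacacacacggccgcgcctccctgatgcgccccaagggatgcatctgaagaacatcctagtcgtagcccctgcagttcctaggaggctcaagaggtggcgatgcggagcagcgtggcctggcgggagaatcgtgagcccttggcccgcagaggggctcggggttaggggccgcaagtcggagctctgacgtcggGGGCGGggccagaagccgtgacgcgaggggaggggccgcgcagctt
Tnfrsf13c: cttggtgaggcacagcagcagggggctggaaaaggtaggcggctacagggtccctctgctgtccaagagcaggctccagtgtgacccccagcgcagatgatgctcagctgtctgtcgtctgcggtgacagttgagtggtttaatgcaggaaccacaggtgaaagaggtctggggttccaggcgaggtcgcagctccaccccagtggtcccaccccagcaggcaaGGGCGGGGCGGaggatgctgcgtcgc
The Relt window held 1 GC box with 67.6% G and C, and the Tnfrsf13c window held 2 overlapping GC boxes with 63.2%. A GC box was present in 32.7% of 32851 RefSeq windows of the same length. Searches on both strands for the octamer ATTTGCAT, present in 1.6% of all windows, and for the kappaB consensus, present in 7.25%, gave 0 matches in either promoter. RefSeq windows were matched for 7 of the 9 genes, all but Cd40 and Cd70.

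Transcript usage of Relt was also examined. The main Relt transcript, with 1311 coding bases, held 59.5, 66.1 and 61.1% of Relt TPM (a level per transcript length) for Eµ-MTCP1 mice, 59.4, 85.8 and 71.7% for Eµ-TCL1 mice and 100, 62.9 and 71.8% in wildtype mice. The groups overlapped, and the share averaged 67.3 ± 10.2% over the 6 transgenic and 78.2 ± 19.4% over the 3 wildtype libraries (two-sided exact permutation test, p = 0.262). Between the models it differed by 10.1 percentage points (p = 0.4 in the same exact test, where the smallest p of 3 against 3 libraries is 0.1). On the full-length reference the share was 63.3 ± 4.78% over the transgenic and 70.7 ± 3.48% over the wildtype libraries (two-sided exact permutation test, p = 0.0714). Eµ-MTCP1 and wildtype libraries alone were not compared, and the part of transcript usage in the difference of the gene was not tested.

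The genes around Relt were then compared, since the Z36 transgene lies in Fam168a. Relt lies 4191 bases beyond Fam168a on the opposite strand, so that the 3′ ends of these genes face each other. By the study's coordinates the insertion is near the start of Fam168a, so most of that gene's length lies between it and Relt. Of 17 genes with at least 10 reads within 500 kb of Fam168a, 15 were tested, and 4, Relt among them, were called higher and 1 lower in Eµ-MTCP1 than in wildtype B cells, where 5.49% of all genes were higher and 3.99% lower. In Eµ-TCL1 mice, whose transgene is another, 3 were higher, again with Relt, and 1 lower, beside 5.07% and 4.13% of all genes. The gene on the far side of Relt, Arhgef17 (a guanine nucleotide exchange factor), had 308, 440 and 279 reads in Eµ-MTCP1 mice, against 0, 1 and 2 for Eµ-TCL1 mice and 3, 0 and 0 for wildtype mice. It was called in Eµ-MTCP1 mice against wildtype (adjusted p = 0.000253) and between the models (adjusted p = 0.00102), and of the 15 genes it was the 1 called between the models. Arhgef17 passed the expression filter through the Eµ-MTCP1 libraries, the group where it was high. Reads of Fam168a itself were few, 18 to 62 in Eµ-MTCP1, 24 to 50 in Eµ-TCL1 and 17 to 41 in wildtype mice, with adjusted p of 0.509 and 0.537 against wildtype. Plekhb1, the nearest gene with reads on the other side of Fam168a, had 7, 10 and 4 reads in Eµ-MTCP1 mice and 0 or 1 in each of the other 6 libraries, too few to be tested. Ucp2 and Dnajb13, farther on that side, were higher in both models, Dnajb13 with log2 fold changes of 2.41 in the Eµ-MTCP1 and 1.93 in the Eµ-TCL1 model. Fchsd2, beyond Arhgef17, was lower in both, by log2 fold changes of -2.26 and -1.57. Without wildtype replicate 2 Arhgef17, Dnajb13 and Fchsd2 kept these calls, and Ucp2 did not, with log2 fold changes of 0.93 (adjusted p = 0.105) in Eµ-MTCP1 and 1.03 (0.0781) in Eµ-TCL1 mice in place of 0.998 and 1.097. Thus Relt rose in mice with and without the insertion in Fam168a, and the part of the insertion in the level of Relt in Eµ-MTCP1 mice was not tested.

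**Figure D3:**
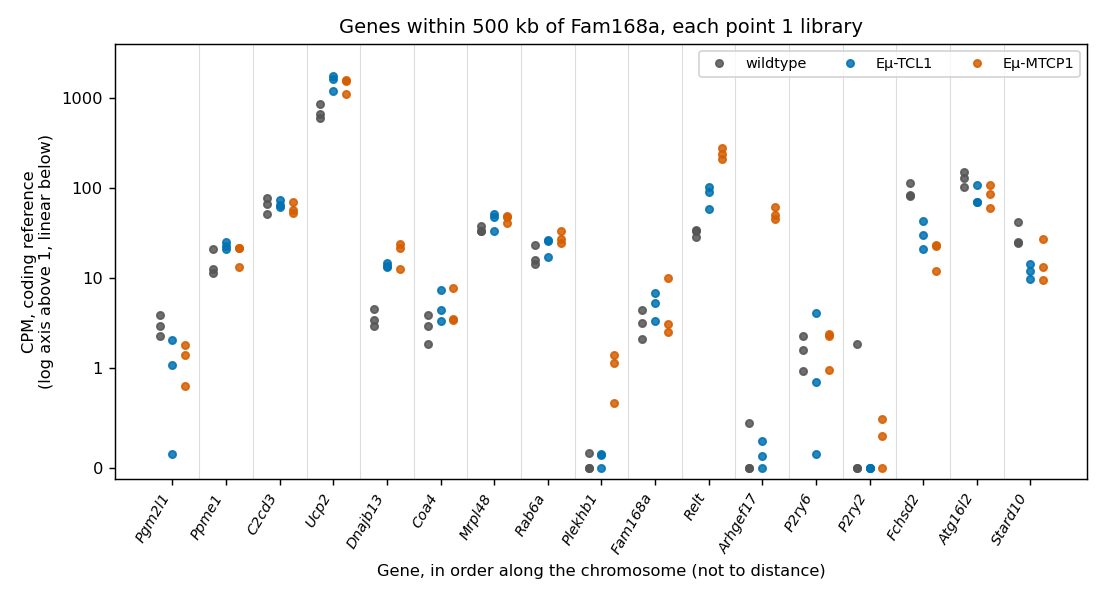
CPM of the 17 genes within 500 kb of Fam168a (vertical axis, log scale above 1 CPM and linear below), in their order along the chromosome and not to distance, each point 1 library. Arhgef17 has reads almost only in Eµ-MTCP1 libraries (279 to 440 reads, against 0 to 3 in the others), whereas Relt is stepped over the 3 groups and Fam168a overlaps.

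Cd40 (ENSMUSG00000017652, chr2:165055627-165072948, plus strand) fell in both models. It was measured at 26.4, 42.5 and 67.8 CPM in Eµ-MTCP1 mice, 60.9, 63.5 and 80.2 CPM in Eµ-TCL1 mice and 166, 138 and 152 CPM in wildtype mice. All 6 transgenic libraries lay below all 3 wildtype libraries, and the 2 models overlapped. Groups without overlap, in either direction, were found for 29.9% of all genes tested in Eµ-MTCP1 and 32.6% in Eµ-TCL1 against wildtype. Means were 45.5 ± 20.8, 68.2 ± 10.5 and 152 ± 14 CPM (SD, n = 3 each). Cd40 was 3.34-fold lower than wildtype in Eµ-MTCP1 B cells (log2 fold change -1.74, SE 0.30, adjusted p = 0.00550), a call kept under all 21 alternatives (adjusted p 4.87e-07 to 0.0246). The log2 fold change was -1.16 (SE 0.29) in Eµ-TCL1 B cells, 2.23-fold lower than wildtype (adjusted p = 0.0350). This second call was kept under 15 of 21 alternatives and was lost when any 1 of the 6 Eµ-TCL1 and wildtype libraries was left out (adjusted p 0.0549 to 0.114). Without wildtype replicate 2, the log2 fold changes were -1.84 (adjusted p = 0.0161) and -1.25 (adjusted p = 0.0684).

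The difference of Cd40 between the models was 0.58 on the log2 scale (SE 0.29, adjusted p = 0.805, range over alternatives 0.522 to 0.993). CD40 is also carried by dendritic cells, whose 4 markers, all above 0 reads in each group, summed to 3.80 to 18.3 CPM in Eµ-MTCP1, 2.66 to 36.4 CPM in Eµ-TCL1 and 21.7 to 48.2 CPM in wildtype libraries. Of these, Siglech had 0, 9 and 0 reads in Eµ-MTCP1, 5, 21 and 13 in Eµ-TCL1 and 35, 10 and 10 in wildtype mice. Flt3 was below wildtype in both models without overlap, whereas Itgax had 213 reads in Eµ-TCL1 replicate 3 and 58 to 115 in wildtype libraries. The summed markers were lower in Eµ-MTCP1 than in wildtype libraries without overlap, and in Eµ-TCL1 libraries they overlapped wildtype. The part of such cells in the fall of Cd40 was not tested.

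Tnfrsf13c, the receptor that carries the BAFF survival signal (ENSMUSG00000068105, chr15:82221743-82224369, minus strand), was measured at 292, 160 and 242 CPM in Eµ-MTCP1 mice, 119, 192 and 114 CPM in Eµ-TCL1 mice and 129, 89.0 and 100 CPM in wildtype mice. Every Eµ-MTCP1 library lay above the wildtype libraries, while Eµ-TCL1 overlapped both groups. Groups that did not overlap were found for 29.9% of all genes tested in Eµ-MTCP1 against wildtype. The gene was 2.18-fold higher in Eµ-MTCP1 than in wildtype B cells (log2 fold change 1.12, SE 0.28, adjusted p = 0.0322). The call was kept under 15 of 21 alternatives (adjusted p 0.00214 to 0.137). It was lost when Eµ-MTCP1 replicate 1 (adjusted p = 0.0936), Eµ-MTCP1 replicate 3 (0.0935), wildtype replicate 2 (0.137) or wildtype replicate 3 (0.129) was left out, and with length offsets in edgeR (0.0546), although the log2 fold change stayed between 0.89 and 1.30. In Eµ-TCL1 B cells the log2 fold change was 0.42 (SE 0.28, adjusted p = 0.392), and the difference between the models was -0.71 (SE 0.28, adjusted p = 0.690, unadjusted p = 0.0287).

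Tnfrsf13b, which encodes TACI (ENSMUSG00000010142, chr11:61126755-61149372, plus strand), had 79.8, 169 and 218 CPM in Eµ-MTCP1 mice, 175, 150 and 98.2 CPM in Eµ-TCL1 mice and 78.1, 77.4 and 65.7 CPM in wildtype mice. Both models lay above wildtype without overlap, but Eµ-MTCP1 replicate 1 exceeded the highest wildtype library by under 2 CPM. Groups without overlap, in either direction, were found for 32.6% of all genes tested in Eµ-TCL1 against wildtype. The log2 fold changes of 1.08 (SE 0.34) and 0.93 (SE 0.34) did not pass the test (adjusted p = 0.0753 and 0.115). Without Eµ-MTCP1 replicate 1 the adjusted p was 0.00895 in Eµ-MTCP1 mice, with a log2 fold change of 1.36, and 0.0317 in Eµ-TCL1 mice, and over all alternatives it ran from 0.00895 to 0.252 in Eµ-MTCP1 mice. With DESeq2 in place of edgeR the gene passed in Eµ-MTCP1 mice (adjusted p = 0.0194) and had an adjusted p of 0.0538 in Eµ-TCL1 mice, where it passed under 3 of 21 alternatives (adjusted p 0.0317 to 0.2985), among them DESeq2 with length offsets (0.0341). Between the models the log2 difference of Tnfrsf13b was -0.14 (SE 0.33, adjusted p = 0.959).

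The balance of TACI to the BAFF receptor, as the log2 ratio of their TPM with 0.1 TPM added, was -2.54, -0.50 and -0.82 for Eµ-MTCP1 mice, 0.06, -0.90 and -0.79 for Eµ-TCL1 mice and -1.54, -0.93 and -1.05 in wildtype mice. Tnfrsf13b was below Tnfrsf13c per length in 8 of 9 libraries, and Eµ-MTCP1 replicate 1 held the lowest ratio. The 6 transgenic libraries averaged -0.92 ± 0.87 and the 3 wildtype libraries -1.17 ± 0.32 (two-sided exact permutation test, p = 0.571). Without Eµ-MTCP1 replicate 1 the difference was 0.58 (two-sided exact permutation test, p = 0.0357), and on the full-length reference it was -0.08 (p = 0.929, same exact test).

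Tnfrsf17, the plasma cell receptor BCMA (ENSMUSG00000022496, chr16:11313812-11320074, plus strand), varied widely within each leukemia model. It had 13, 155 and 83 reads in Eµ-MTCP1 mice (2.15, 22 and 13.6 CPM), 45, 9 and 91 reads in Eµ-TCL1 mice (6.30, 1.1 and 12.6 CPM) and 33, 22 and 22 reads in wildtype mice (4.99, 2.39 and 2.73 CPM). Both models overlapped wildtype, with the lowest transgenic libraries below the lowest wildtype library. Log2 fold changes of 1.91 (SE 0.88) and 0.99 (SE 0.88) did not pass the test (adjusted p = 0.210 and 0.529), under none of 21 alternatives (0.0917 to 0.457 and 0.309 to 0.954). The plasma cell marker Sdc1 had 36, 299 and 154 reads in Eµ-MTCP1, 102, 22 and 198 in Eµ-TCL1 and 139, 102 and 67 in wildtype libraries, so in each model the libraries took the same order by Sdc1 as by Tnfrsf17. The same order held for Jchain and Xbp1 in both models, whereas Mzb1 took another order in both and Prdm1 in Eµ-TCL1 mice. All 5 plasma cell markers were above 0 in each group and summed to 910 to 3875 CPM in Eµ-MTCP1, 587 to 2836 CPM in Eµ-TCL1 and 1078 to 1777 CPM in wildtype libraries; their part in Tnfrsf17 was not tested.

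Cd27, a costimulatory receptor of lymphocytes (ENSMUSG00000030336, chr6:125232622-125237010, minus strand), had 3, 12 and 6 reads in Eµ-MTCP1, 5, 8 and 24 in Eµ-TCL1 and 7, 15 and 13 in wildtype libraries. The groups overlapped, and the log2 fold changes of -0.42 (SE 0.80) and 0.21 (SE 0.78) did not pass the test (adjusted p = 0.775 and 0.897). Eµ-TCL1 replicate 3, the library with 24 reads, also had the most reads of the T cell marker Cd3e, 51 against 0 to 11 in the others. It had 146 reads of Cd3g (20.2 CPM), and Eµ-MTCP1 replicate 1, the library with 3 reads of Cd27, had 136 (22.5 CPM). In the same order these libraries had 63 and 4 reads of Cd3d, 18 and 0 of Cd8a and 75 and 0 of Cd8b1. Those of Cd4 were 4 and 0, and those of Cd28 were 6 and 8. Whether T cells gave the Cd27 reads was not tested. T cell markers summed to 4.76 to 24.4 CPM in Eµ-MTCP1, 9.52 to 50.2 CPM in Eµ-TCL1 and 3.58 to 7.55 CPM in wildtype libraries.

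The ligands were scarce in these B cells. Tnfsf13, or APRIL (ENSMUSG00000089669, chr11:69682846-69685784, minus strand), had 20, 26 and 11 reads in Eµ-MTCP1, 10, 15 and 33 in Eµ-TCL1 and 27, 41 and 36 in wildtype libraries. Its levels were 1.80 to 3.69 CPM in Eµ-MTCP1 mice, below the 4.08 to 4.46 CPM of wildtype, and 1.40 to 4.56 CPM in Eµ-TCL1 mice, which overlapped wildtype. The log2 fold changes of -0.56 (SE 0.57) and -0.73 (SE 0.57) did not pass the test (adjusted p = 0.574 and 0.462). Its gene model shares read-through transcripts with the neighbouring Tnfsf12, so its reads are uncertain. Tnfsf13b, or BAFF (ENSMUSG00000031497, chr8:10006467-10039072, plus strand), had 0, 7 and 4 reads in Eµ-MTCP1, 2, 4 and 9 in Eµ-TCL1 and 3, 8 and 2 in wildtype libraries. Cd70 (ENSMUSG00000019489, chr17:57145997-57149777, minus strand) had 0 reads in all Eµ-MTCP1 libraries, 0, 0 and 4 in Eµ-TCL1 and 5, 0 and 2 in wildtype libraries. A count of 0 allows up to 3 reads, or 0.326 to 0.495 CPM. Tnfsf13b exceeded this in 5 of 9 libraries, with at most 9 reads, and Cd70 in 2 of 9, with at most 5, and neither passed the expression filter. Without that filter they were not called in any comparison (adjusted p of 1, 0.92 and 1 for Tnfsf13b and 0.342, 0.853 and 0.868 for Cd70, for Eµ-MTCP1 and then Eµ-TCL1 mice against wildtype and last between the models), so no difference was detectable at this depth.

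Per length on the coding reference, the order of levels in wildtype B cells was Tnfrsf13c (204 ± 24 TPM, SD, n = 3), Cd40 (140 ± 14.3), Tnfrsf13b (90.7 ± 13), Relt (21.6 ± 8.14), Tnfrsf17 (5.22 ± 1.49), Tnfsf13 (4.20 ± 0.78), Cd27 (1.55 ± 0.44), Tnfsf13b (0.595 ± 0.589) and Cd70 (0.458 ± 0.494). The libraries of Tnfrsf17 and Tnfsf13 overlapped, and those of Tnfsf13b overlapped those of Cd27 and of Cd70, whereas every wildtype library of Cd27 lay above those of Cd70. In Eµ-MTCP1 B cells Tnfrsf13c was again first (351 ± 113 TPM), with Tnfrsf13b (150 ± 65.3) and Relt (146 ± 14.2) overlapping next and Cd40 (31.1 ± 14) below all of these. In Eµ-TCL1 B cells Tnfrsf13c stood at 225 ± 74.4 TPM and Tnfrsf13b at 154 ± 45.0 TPM, with overlap, and Cd40 (52.7 ± 9.14) and Relt (49.2 ± 19.1) overlapped. The order differed on the full-length reference. There the wildtype mean of Tnfrsf13b (155.5 TPM) was above that of Cd40 (127.9 TPM), with overlap, and Cd27 (13.4 TPM) was above Tnfrsf17 (5.01 TPM). Tnfrsf13b in Eµ-MTCP1 B cells (139 to 293 TPM) then lay above Relt (102 to 127 TPM) without overlap.

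Genes with the pattern most like that of each called gene were named by the smallest root mean square difference of log2 CPM, each centred on its own mean over the 9 libraries, among 8963 genes with at least 5 CPM on average. For Relt these were Gpx7 (0.402), Twsg1 (0.415) and Timp2 (0.419). Zbtb18 (0.161), Il27ra (0.201) and Ddb2 (0.221) lay closest to Cd40, and Pigt (0.198), Dok3 (0.198) and Pabpc1 (0.200) to Tnfrsf13c. Relt thus had no gene as near as Cd40 or Tnfrsf13c did. Its closest pattern, Gpx7, averaged 12.6 CPM in Eµ-MTCP1, 4.96 CPM in Eµ-TCL1 and 1.83 CPM in wildtype mice.

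Genes that signal below these receptors were then examined. All 12 TRAF adaptors and noncanonical NF-κB genes were tested, and 3 fell and 0 rose in Eµ-MTCP1 against wildtype B cells, where 3.99% of all genes fell, with a median log2 fold change of -0.80 beside -0.02 over all genes. In Eµ-TCL1 B cells 1 fell and 0 rose, where 4.13% of all genes fell, with a median of -0.34 beside -0.01. Nfkb2, which encodes p100, was at 84.6, 83.1 and 105 CPM in Eµ-MTCP1 libraries, at 427, 110 and 298 CPM in Eµ-TCL1 libraries and at 317, 331 and 285 CPM in wildtype libraries. It was below wildtype in every Eµ-MTCP1 library (log2 fold change -1.77, SE 0.39, adjusted p = 0.0185) whereas in Eµ-TCL1 mice replicate 2 alone lay below the wildtype range, with a log2 fold change of -0.16 in that model (adjusted p = 0.834). Birc3, an inhibitor of apoptosis protein that works with TRAF2 in holding back the NF-κB-inducing kinase, fell by 0.95 on the log2 scale in Eµ-MTCP1 B cells (SE 0.23, adjusted p = 0.0276). Traf4, an adaptor of the TRAF family, fell in both models, from 33.2, 64.7 and 32.5 CPM in wildtype to 5.45, 7.67 and 6.56 CPM for Eµ-MTCP1 and 17.8, 4.79 and 11.5 CPM for Eµ-TCL1 libraries (adjusted p = 0.00557 and 0.0235). The number of the 12 called lower in Eµ-MTCP1 mice was 1 without Eµ-MTCP1 replicate 3 or without wildtype replicate 3, 2 without Eµ-MTCP1 replicate 2 or wildtype replicate 2, and 7 with DESeq2 on the full-length reference, and in Eµ-TCL1 mice it was 0 without wildtype replicate 2, 2 without Eµ-TCL1 replicate 2, 3 with DESeq2 and 4 with DESeq2 on the full-length reference. The genes not called without wildtype replicate 2 were Nfkb2 in Eµ-MTCP1 mice (log2 fold change -1.76, adjusted p = 0.0544) and Traf4 in Eµ-TCL1 mice (-1.57, adjusted p = 0.0938).

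**Figure D4:**
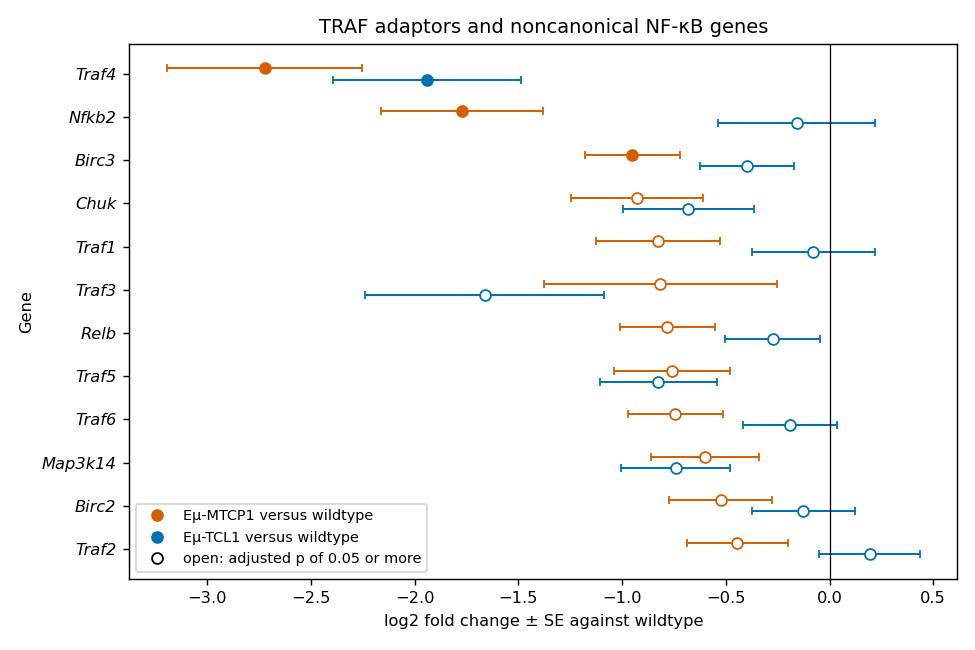
Log2 fold changes with SE (horizontal axis) of the 12 TRAF adaptors and noncanonical NF-κB genes against wildtype in Eµ-MTCP1 and Eµ-TCL1 B cells, filled where the adjusted p was under 0.05. Traf4, Nfkb2 and Birc3 are filled in Eµ-MTCP1 and Traf4 in Eµ-TCL1 mice, and all 12 Eµ-MTCP1 points lie below 0.

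The rest of the family was examined as well. Of 22 other TNF receptors 14 were tested, with 1 higher in Eµ-MTCP1 and 2 higher in Eµ-TCL1 B cells and 0 lower in either, beside 5.49% and 5.07% of all genes called higher, although the gene count table gave 2 higher and 2 lower in Eµ-MTCP1 mice. In Eµ-TCL1 mice 1 was higher when Eµ-TCL1 replicate 1 or any 1 wildtype library was left out, and in Eµ-MTCP1 mice 2 were higher without Eµ-MTCP1 replicate 1 or Eµ-TCL1 replicate 2. Tnfrsf19 (TROY) was at 57.3, 27.3 and 34.5 CPM in Eµ-MTCP1 libraries, and at 18.3, 48.1 and 45.4 CPM in Eµ-TCL1 libraries, against 0.543 to 1.06 CPM in wildtype (adjusted p = 0.000260 and 0.000202), and was called in both without wildtype replicate 2 (adjusted p = 0.00255 and 0.00231). With 7, 5 and 6 reads in wildtype mice, Tnfrsf19 passed the expression filter through the transgenic libraries. Tnfrsf8, which encodes CD30, was called in Eµ-TCL1 mice, at 73.0, 7.86 and 28.5 CPM against 0.124 to 1.51 CPM in wildtype (log2 fold change 5.27, adjusted p = 0.0249, and 5.49 and 0.0904 without wildtype replicate 2), while it ranged from 1.32 to 36.4 CPM in Eµ-MTCP1 mice (adjusted p = 0.0605). It had 10, 11 and 1 reads in wildtype mice and likewise passed the filter through the transgenic libraries. Of 15 other TNF ligands 5 were tested, and Tnfsf4 (OX40 ligand) was called in Eµ-MTCP1 mice, at 16.2, 1.42 and 4.76 CPM against 0 to 0.302 CPM in wildtype (adjusted p = 0.0414). In Eµ-TCL1 mice Tnfsf4 was at 0.14, 7.74 and 9.27 CPM (adjusted p = 0.0528), and 1 ligand was called higher there with DESeq2, without an expression filter, on the full-length reference and in the gene count table. In wildtype mice Tnfsf4 had 2, 0 and 0 reads, so it entered the test through the transgenic libraries. With only the 2 groups compared 4 ligands were tested and 0 were called higher in Eµ-MTCP1 mice. None of the 5 ligands was called higher in Eµ-MTCP1 mice with length offsets in edgeR or without Eµ-MTCP1 replicate 1 or 3, Eµ-TCL1 replicate 2 or 3, or any 1 wildtype library. Among the RELT homologues Rell1 and Rell2 and the RELT-binding kinase gene Oxsr1, 0 of 3 were called in any comparison with edgeR, and 0 at an unadjusted p under 0.05, with log2 fold changes between -0.67 and 0.03; DESeq2 on the full-length reference called 1 lower in Eµ-MTCP1 mice. Of 8 processing and shedding enzymes, such as the protease that releases BAFF, 0 were called in any comparison with edgeR. At an unadjusted p under 0.05 there were 1 in Eµ-MTCP1 and 2 in Eµ-TCL1 mice against wildtype and 1 between the models, and DESeq2 on the full-length reference called 1 higher and 1 lower in Eµ-TCL1 mice.

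The reference on which reads were counted touched these genes unequally. Of 57756 transcripts shared by both references, 95.3% were shorter on the coding reference and 0 were longer. For Tnfrsf13b the coding reference kept 16.2 to 32.7% of the full-length reads of a library, for Tnfrsf13c 20.5 to 27.6%, for Relt 39.4 to 46.4%, for Cd40 48.9 to 57.3% and for Cd27 3.26 to 22%. The references also differ in the transcripts they hold (57871 coding and 140748 full-length). Where along these genes the remaining reads lay was not examined. On the full-length reference Cd27 had 60 to 159 reads, of which 48.9 to 142 lay on 1 retained-intron transcript, and its 3 groups still overlapped. Calls of Relt, Cd40 and Tnfrsf13c were kept there, with log2 fold changes of 2.97, -1.66 and 1.08 in Eµ-MTCP1 mice, whereas that of Tnfrsf13b was 0.67 (adjusted p = 0.117) in place of 1.08. Tnfsf13 was the exception, with 10 to 41 reads on the coding and 12 to 59 on the full-length reference but 0 to 11 in the deposited gene count table.

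**Figure D5:**
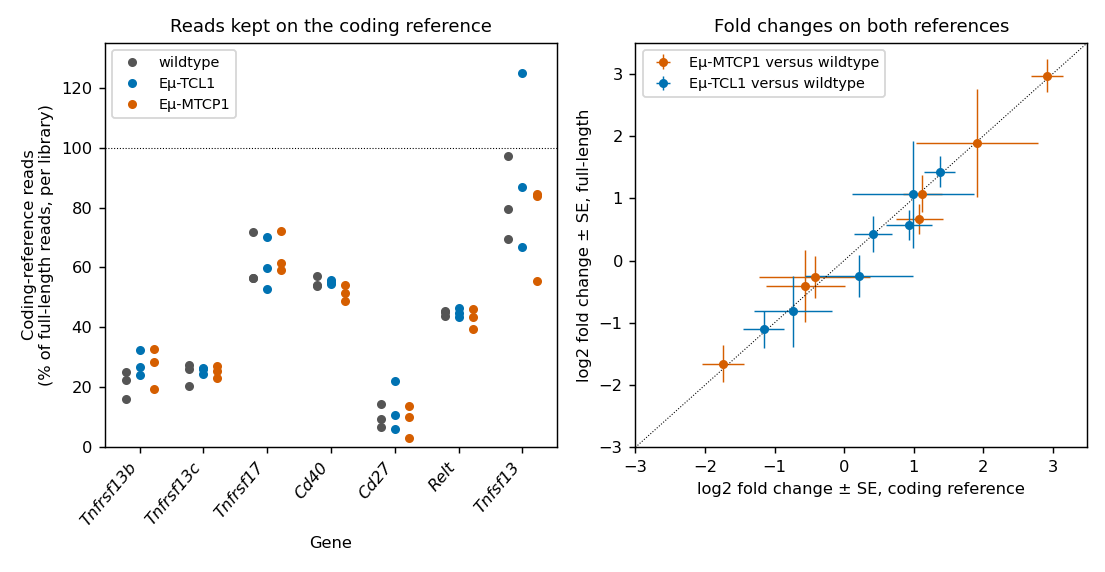
Left, reads counted on the coding reference as a percentage of those on the full-length reference (vertical axis) for the 7 tested genes, each point 1 library. Right, log2 fold changes with SE against wildtype on the coding (horizontal) and full-length (vertical) reference; the dotted line marks equal values, and Tnfrsf13b lies below it at 1.08 against 0.67 in Eµ-MTCP1 mice.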

How the data were processed

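Splenic B cells of 9 mice were sequenced, with 1 library per mouse. Estimated counts per transcript had been made by the authors with Salmon 1.0.0, on a coding reference with human MTCP1 and TCL1 added and on full-length transcripts. TPM, divided by effective length, had been made by the authors in the same runs. Whole counts per gene were deposited in a further table, for which the labels name HISAT2 2.0.6, Subread and featureCounts and the build GRCm38.p4; further tables with the authors' own comparisons and a filtered copy of the counts were not used.

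Here estimated counts on the coding reference were summed per gene with GENCODE M21 (GRCm38), rounded, filtered with filterByExpr, scaled by TMM and fitted with edgeR 4.0.16 in R 4.3.3 (glmQLFit, quasi-likelihood F test), with all 9 libraries in 1 fit. At most 0.291% of reads fell on transcripts not in M21. Benjamini-Hochberg adjustment was applied separately to each comparison. Of 22154 genes, 11165 were tested. DESeq2 1.42.0 with transcript lengths, the tool of the study's methods, was run as an alternative on the genes and annotation used here, without the study's own selection of transcripts. Scripts were tested on simulated data. Replicate numbers follow the order of deposition.

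Genes of the set, the lists and the tests were chosen with earlier results of these data known. Besides the set, list genes were named where called (up to 4 per list and comparison), genes within 500 kb of Fam168a where they had at least 10 reads, and 3 genes of like pattern per called gene. Intervals and floors cover counting error only, since the reads carry no molecular identifiers. Some marker results are not reported here.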

Additional observations from a re-analysis of the deposited data

How the results depend on the processing

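Of the log2 fold changes of the 7 tested genes in 3 comparisons, 401 values under other settings kept direction and side of the threshold, 12 lost a call, 11 gained one and 13 changed sign. With library size alone and with length offsets in edgeR, 1 gene of the set was higher in Eµ-MTCP1 than in wildtype B cells in place of 2, and 3 were with DESeq2, with DESeq2 and length offsets, and with DESeq2 on the full-length reference. With DESeq2 and length offsets, and with only the 2 groups compared, 2 were higher in Eµ-TCL1 in place of 1. Between the models 1 gene, Relt, was lower with DESeq2, without an expression filter, with DESeq2 and length offsets, and with DESeq2 on the full-length reference (a setting chosen after seeing the data). Leaving out 1 library in turn gave 1 to 2 genes higher in Eµ-MTCP1, 1 to 2 higher and 0 to 1 lower in Eµ-TCL1, and 0 between the models.

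All 13 changes of sign were in values that did not pass the test. Cd27 in Eµ-TCL1 mice against wildtype was -0.25 on the full-length reference, -0.23 in the gene count table, -0.36 and -0.37 on the full-length reference with length offsets in edgeR and DESeq2 (both chosen after seeing the data), and -0.76 to 0.57 with 1 library left out; between the models it was -0.0783 and -0.0815 in these added fits and -0.33 to 1.15 with 1 left out. With 1 library left out, the difference between the models ran from -0.47 to 0.18 for Tnfrsf13b and from -0.85 to 0.12 for Tnfsf13. The receptor balance in transgenic against wildtype mice was -0.0806 on the full-length reference and 0.0642 to 0.58 with 1 library left out, past the threshold at 0.58 without Eµ-MTCP1 replicate 1. The share of the main Relt transcript between the models was -6.34 percentage points on the full-length reference and 3.31 to 16.5 with 1 library left out. The cause of these changes was not tested.

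Over all genes, 1059, 1027 and 5 were called in the 3 comparisons, against 1646, 1695 and 73 with DESeq2, up to 2392, 2373 and 110 over all settings, and 525 to 1028, 517 to 1240 and 5 to 8 with 1 library left out. No paired analysis was possible because the labels give no replicate numbers. Depth limits Tnfsf13b, Cd70, Cd27 and Tnfsf13, which had at most 41 reads in any library on the coding reference.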
